A study of Mus musculus with 2 samples.

Results

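Endothelial cells with UMIs of Npr3, Plvap and Col23a1 were picked from the mitral valve leaflets of embryonic mice (E17.5). A cell was a member when Pecam1, Cdh5 and Egfl7 together held at least 3 UMIs and the sum of Npr3, Plvap and Col23a1 was at least 3 and higher than each of 5 other marker sums. The members were therefore chosen by the levels of these genes, which are given as a description. Of 17162 kept cells, 991 were members, 214 in the mutant and 777 in the control library.

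The mutant library came from Nfatc1-Cre, Dicer loxp/loxp embryos, in which each Dicer1 allele is floxed and Cre follows Nfatc1, and the control library came from wild-type embryos. Nfatc1-Cre acts in the endocardial lineage, including the valve endothelium and cells derived from it. Whether coronary vessel cells in the leaflets carry the deletion was not measured. Hearts were pooled, 3 to 4 per genotype, leaflets were dissociated with 0.05% trypsin, live cells were sorted with a viability dye, and 3′ ends were sequenced after droplet capture. Each genotype has 1 library, so genotype, pool and preparation cannot be told apart. Intervals cover counting error only.

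Endothelial cells line the valve leaflets and are the surface that meets the blood. Npr3 is the clearance receptor of natriuretic peptides, Plvap forms the diaphragms of caveolae and fenestrae, and Col23a1 is a transmembrane collagen. Dicer1 cuts microRNA precursors into mature microRNAs, which lower the level of transcripts that pair with their seed, so loss of the enzyme is known to raise such targets.

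The mutant library held 69475632 UMIs in 8250 barcodes and the control library 70221728 in 12793. Members had a median of 10066 UMIs in the mutant and 5416 in the control library, and their UMIs summed to 2214344 and 4519647. Median mitochondrial shares were 4.98% in mutant and 4.71% in control members. In the mutant library 105 members were female-type (Xist and no Y-linked UMI), 84 were male-type and 25 could not be typed. In the control library 765 were female-type, 0 male-type and 12 untyped, so the libraries also differ in sex. Ratios between female-type members alone are given for some genes only, and all other ratios mix the types. The 2 libraries had 11 kept barcodes in common, none of them a barcode of members in both.

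Members made up 3.34% of mutant kept cells (95% interval 2.92 to 3.81) and 7.22% of control kept cells (6.74 to 7.73). Among the endothelial-gated cells alone they were 8.18% in the mutant (7.16 to 9.30) and 20.7% in the control (19.4 to 22.0). These intervals count cells of 1 pool per genotype and do not measure the spread between pools. The depth of the libraries differs, so every cell was also thinned to 2000 UMIs before the rule. The share of gated cells was then 5.81% in the mutant and 12.9% in the control library, and the share of kept cells 1.86% and 3.17%. Members were 9.76% of female-type and 8.69% of male-type gated mutant cells, and 21.3% of female-type gated control cells. The class of Gpihbp1, Fabp4, Aplnr and Cd36, genes of coronary capillaries, held 2116 mutant and 2369 control cells, which was 33.0% of mutant and 22.0% of control kept cells and 80.9% and 63.1% of gated cells. Among gated cells outside that class, members were 42.9% in the mutant (38.5 to 47.4) and 56.1% in the control library (53.4 to 58.7). The class of Wnt4, Pthlh, Enpp2 and Prox1 held 55 and 197. A share of a dissected and sorted pool depends on how much of each tissue was taken, and that part was not tested.

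At the edge of the rule, 3 mutant and 34 control members had a marker sum of exactly 3, against medians of 21 in mutant and 9 in control members. Just outside it, 2 mutant and 12 control cells had a highest sum of 2, and 2 mutant and 41 control cells were tied with another class. A further 134 mutant and 186 control gated cells had at least 3 UMIs of the 3 genes but a higher sum in another class. Most members carried all 3 rule genes, 75.2% in the mutant (68.9 to 80.9) and 61.4% in the control library (57.9 to 64.8). Npr3 and Plvap without Col23a1 were seen in 14.5% of mutant and 24.1% of control members. These shares rise with depth, which was higher in the mutant.

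Npr3 (mm10 chr15:11839896-11907287, minus strand) stood at 897 CPM (counts scaled to the same total in each library) in mutant and 764 CPM in control members. Plvap (chr8:71497765-71511752, minus strand) stood at 999 and 758 CPM, and Col23a1 at 304 and 278 CPM. In the Gpihbp1 class Npr3 was at 6.56 CPM in the mutant and 13.3 CPM in the control library, and Plvap at 26.1 and 37.3 CPM. Of the other markers given for these cells, Ednrb, an endothelin receptor, had 802 CPM in mutant and 647 CPM in control members, and Adgrg6, an adhesion G protein-coupled receptor, had 273 and 186 CPM. Both lay above the 4 classes they were compared with in each library. Cytl1 did not: its level in members was 168 CPM in the mutant and 149 CPM in the control, whereas Vwf and Procr cells held 315 and 114 CPM.

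The endothelial label fits the marker levels. Emcn, an endothelial sialomucin, stood at 952 CPM in mutant and 1067 CPM in control members, and Eng, a co-receptor for BMP9 and TGF-beta, at 941 and 832 CPM. Cldn5, a tight junction protein of vessels, was low at 23.0 and 11.7 CPM, against 485 and 365 CPM in the Gpihbp1 class. The 8 endocardial markers that the rule did not use summed to 3454 CPM in mutant and 2853 CPM in control members, against 653 and 628 CPM in the Gpihbp1 class. That sum was 2749 and 1632 CPM in the Wnt4 class, and 2326 and 1569 CPM in the Vwf and Procr class. It held Hapln1 and also Ednrb, Adgrg6 and Cytl1, which were given as markers of these cells, so it is no independent support. The 6 coronary markers that the rule did not use summed to 138 and 148 CPM in members, against 909 and 821 CPM in the Gpihbp1 class. The word valve in the label is less firmly held by the data. Nfatc1, the valve endocardial factor whose regulatory sequence is used for the Cre, was at 93.5 CPM in mutant and 88.7 CPM in control members, below the 274 and 230 CPM of the Wnt4 and Pthlh class. No list used here parts valve endothelium from the neighbouring endocardium of the chambers, so the cells are called by their genes.

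**Figure D1:**
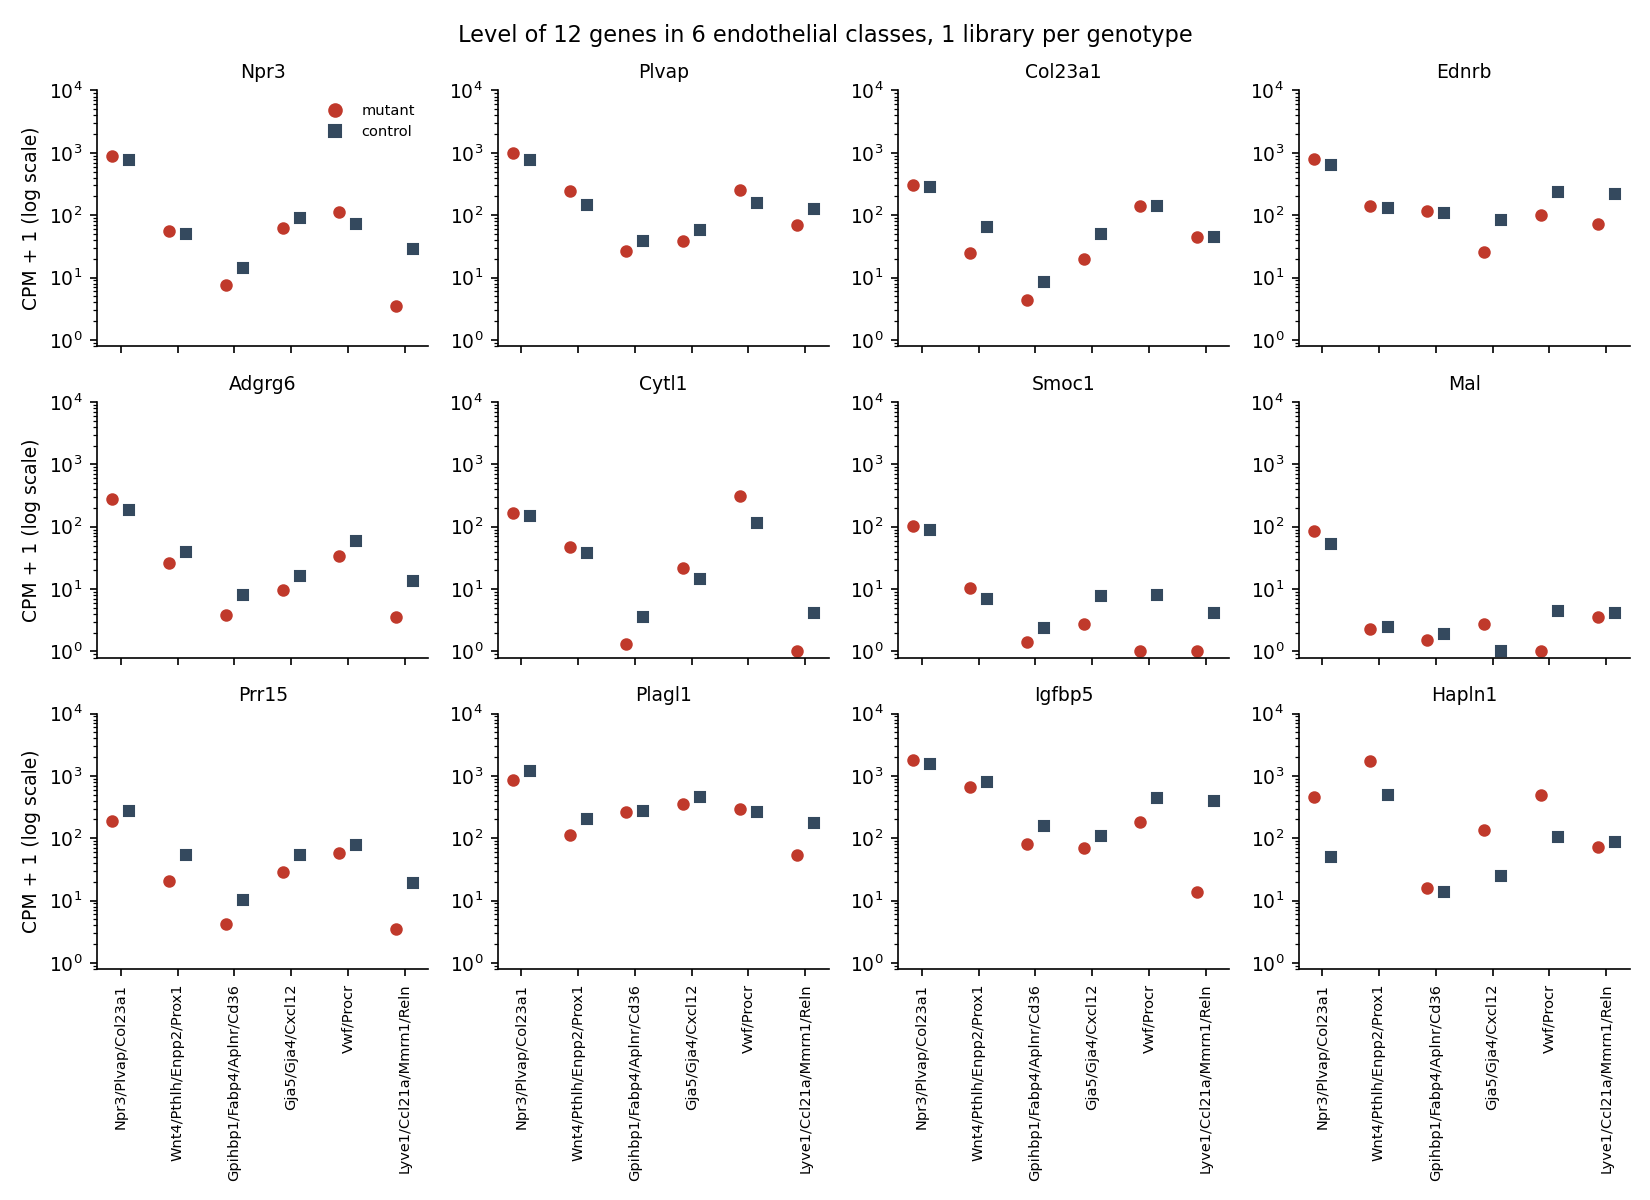
CPM + 1 on a log axis for 12 genes in 6 endothelial classes, 1 point per library (circles mutant, squares control). Npr3, Plvap and Col23a1 are highest in the members by the rule, Cytl1 is also high in Vwf and Procr cells, and Hapln1 is highest in the Wnt4 and Pthlh class.

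Genes that the rule did not use also led the set. Because all genes of a cell move with the cell, these are a description with no test. Of 2978 genes at 50 CPM or more in both libraries, 13 (0.437%) were at least 2-fold above each of the Wnt4, Gpihbp1, Gja5 and Vwf classes in both. Smoc1, a secreted calcium-binding protein that modulates BMP signalling, led them at 100 CPM in mutant and 87.4 CPM in control members, with 9.26 and 5.98 CPM in the Wnt4 class. Mal, a lipid raft protein, had 85.8 CPM in mutant and 52.2 CPM in control members, and at most 3.46 CPM in those 4 classes. Prr15 followed at 187 and 273 CPM.

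Several of the 20 leading genes have known roles in growth and signalling. Plagl1, an imprinted transcription factor, stood at 859 CPM in mutant and 1211 CPM in control members, and Cdkn1c, an imprinted inhibitor of the cell cycle, at 2328 and 2607 CPM. Igfbp5, a binding protein of insulin-like growth factors, had 1811 and 1532 CPM. Tgfbr3, the co-receptor betaglycan, had 140 CPM in mutant and 73.7 CPM in control members, a log2 ratio of 0.93 (0.70 to 1.15). Gucy1b1, a subunit of the soluble guanylate cyclase that senses nitric oxide, had 96.2 and 90.5 CPM. Fabp5, a fatty acid carrier, was the most abundant of them at 5589 and 7841 CPM. The remaining leading genes were Ppp1r14c, Eps8, Irx5, Nrk, Lmo4, Lbp, Airn, Phactr2 and Gpr182. Of the 20, Igfbp5, Gucy1b1, Lmo4, Lbp, Airn, Phactr2 and Gpr182 were less than 2-fold above the next class in at least 1 library. Cdkn1c, Igfbp5, Nrk, Lmo4 and Gucy1b1 were higher in a non-endothelial class than in members in both libraries, with Gucy1b1 at 480 and 447 CPM there. Ppp1r14c, at 65.0 CPM in mutant and 68.8 CPM in control members, reached 592 and 638 CPM in a non-endothelial class. It did not pass the guard against free RNA, which asks for at least 1/5 of the highest level in such a class. Lbp, at 116 and 85.6 CPM in members, stood at 245 and 246 CPM in the Lyve1 class, which was not among the classes compared. None of the 20 leading genes differed 2-fold between the genotypes.

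Over the 10 values of 5 classes in 2 libraries, Prr15 had the pattern most like Npr3 among 3119 genes, with a Pearson correlation of 0.95 on log2(CPM + 1). Slc25a36, Eng, Rps6ka2 and Gm49708 followed at 0.93. These points share their libraries and the class sums.

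Dicer1 (chr12:104687742-104751952, minus strand), the targeted gene, stood at 48.8 CPM in mutant and 83.2 CPM in control members, a log2 ratio of -0.77 (-1.09 to -0.46). At 2000 UMIs, 8.77% of mutant and 15.1% of control members held a UMI of it. In the Wnt4 and Pthlh class the ratio was -1.81, and in the Gpihbp1 class -0.32. A 3′ tag from a gene whose transcript persists after recombination is still counted, and the files do not say which exons are flanked by loxP, so the remaining UMIs do not measure unrecombined cells.

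Between the genotypes, Hapln1 stood furthest above control among genes with a mean of 50 CPM or more. Of 3416 genes with a mean of 50 CPM or more, 41 (1.20%) were at least 2-fold higher in mutant members and 15 (0.439%) at least 2-fold lower, around a median log2 ratio of 0.09. Of the 41, 12 did not pass the guard against free RNA, and 9 of these 12 had their highest level in cardiomyocytes. The cardiomyocyte markers summed to 2623 CPM in mutant and 1242 CPM in control members, with 71.3% and 38.8% of these UMIs in 5 cells. The 41 also held the rule genes Wnt4 and Vwf, whose levels in members the rule limits. Of the 15, 2 (Dcn and Ptn) did not pass the guard. The 15 also held the sex-linked marker Xist (-1.26), and S100a9, S100a8 and Cstdc5, whose control UMIs lay mostly in 1 cell. In the Wnt4 and Pthlh class 3.68% were higher and 2.50% lower, in fewer cells. In the Gpihbp1 class 0.0625% were higher and 0.0313% lower. The Npr3 and Wnt4 classes had 12 of the higher and 3 of the lower genes in common, and the Npr3 and Gpihbp1 classes 0 and 1.

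Hapln1 (chr13:89539796-89611652, plus strand) encodes the link protein that fixes versican to hyaluronan in the cushion matrix. It had 453 CPM (425 to 481) in mutant and 49.1 CPM (42.9 to 56.0) in control members, a log2 ratio of 3.20 (2.99 to 3.42). At 2000 UMIs 37.2% of mutant and 6.14% of control members held a UMI of it (59.8% and 12.4% before thinning), and 10.8% and 0.413% held 3 or more. In Gpihbp1 cells, whose median depth was 8285 UMIs in the mutant and 5397 in the control library, 1.90% and 1.68% held one. The member with the most UMIs gave 6.39% of the mutant and 7.21% of the control total. Its ratio was 3.25 between female-type members alone and 1.81 in the Wnt4 and Pthlh class, where the level was 1719 CPM in the mutant and 490 CPM in the control. It was 2.48 in the Gja5 class (137 and 23.9 CPM) and 2.24 in the Vwf and Procr class (497 and 104 CPM).

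Genes that define the other classes were not ranked, and their levels in members are limited by the rule, since the member sum had to be the highest. Wnt4 stood at 116 CPM in mutant and 25.0 CPM in control members, a log2 ratio of 2.21, and Vwf at 351 and 140 CPM, a ratio of 1.32. Pthlh had 19.9 CPM in mutant and 5.75 CPM in control members (1.78), Prox1 46.5 and 44.3 CPM (0.08) and Enpp2 3.16 and 17.9 CPM (-2.41). A UMI of the Wnt4, Pthlh, Enpp2 and Prox1 sum was found in 25.7% of mutant and 14.3% of control members at 2000 UMIs. In members with no such UMI at any depth, 88 mutant and 535 control cells, 38 genes passed 2-fold upward and 22 downward, and 23 and 12 of these were among the 41 and 15.

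Gsta4 is a glutathione transferase that detoxifies lipid peroxidation products. At 2000 UMIs it was found in more mutant members than any other of the 12 highest genes but Calm2. It had 700 CPM in mutant and 202 CPM in control members, a log2 ratio of 1.80 (1.68 to 1.92), and 56.4% and 26.7% of members held a UMI at 2000 UMIs. Its ratio in the Wnt4 and Pthlh class was 2.14, and in the Gpihbp1 class -0.09 (15.8 CPM in the mutant, 16.8 CPM in the control). In Vwf and Procr cells, 23 in the mutant and 48 in the control library, Gsta4 had 1027 and 266 CPM.

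Junction and adhesion proteins formed part of the higher genes. Jam2, a junctional adhesion molecule, had 122 CPM in mutant and 36.7 CPM in control members, a ratio of 1.73 (1.45 to 2.02). Itgav, the integrin alpha-v subunit, had 106 and 38.3 CPM (1.47), and Adgre5, the adhesion receptor CD97, had 121 and 46.2 CPM (1.39). Clec4g, a C-type lectin, had 109 CPM in mutant and 26.8 CPM in control members, a ratio of 2.03 (1.71 to 2.36). In the mutant library it was higher in members than in the Wnt4 class at 45.0 CPM and the Gpihbp1 class at 0.801 CPM. In the control library it was not highest in members, as the Vwf and Procr class held 31.1 CPM and the Wnt4 class 20.9 CPM. The ratio of Clec4g in the Wnt4 class was 1.10 (0.34 to 1.88).

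Calm2, 1 of the 3 calmodulin genes, had the highest level of the 12, 1552 CPM in mutant and 559 CPM in control members, a ratio of 1.47 (1.40 to 1.55). Its reads can be shared with near-identical copies, so its level is less certain than the others. Ddah1, which breaks down an inhibitor of nitric oxide synthase, had 81.3 and 23.7 CPM (1.78), and Plat, tissue plasminogen activator, had 82.2 and 34.3 CPM (1.26). Tnrc6a, a scaffold that binds Argonaute and silences microRNA targets, had 260 CPM in mutant and 108 CPM in control members, a ratio of 1.27 (1.10 to 1.45). The histone genes Hist1h2bc and Hist1h1c had ratios of 1.89 and 1.32. Clustered histone genes resemble each other, so their counts are less certain. Among members with under 3 UMIs of the G2 and M list, the ratio of Hist1h2bc was 2.18 and that of Hist1h1c 0.53.

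All 12 highest genes were at least 2-fold higher between female-type members alone, and 12 of 12 when mutant male-type members were set against control female-type ones. These cells are part of those that ranked the genes, so the agreement is no independent support. Between female-type members 52 genes passed 2-fold upward, and 30 of them were among the 41. In the Wnt4 and Pthlh class 12 of 12 had the same sign and 8 were at least 2-fold higher. Of all genes tested there at 50 CPM or more, 3.68% were, around a median log2 ratio of 0.07. In the Gpihbp1 class 9 had the same sign and 0 reached 2-fold. Of the 12 lowest genes, 8 had the same sign in the Wnt4 class and 5 were at least 2-fold lower, against 2.50% of all genes tested. In the Gpihbp1 class 7 of the 12 lowest had the same sign and 4 were at least 2-fold lower, against 0.0313%.

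The 3 lowest ratios belonged to 1 cell. S100a9 and S100a8, calcium-binding proteins of granulocytes, stood at 4.06 and 3.61 CPM in mutant members, against 217 and 177 CPM in control members, and Cstdc5 at 1.35 against 105 CPM. Between 96.8% and 97.9% of the control UMIs of these genes lay in the same single cell, so these ratios describe that cell and not the set.

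The other lowest genes were spread over more cells. Tmem158 had 59.2 CPM in mutant and 150 CPM in control members (-1.34), and S100a16 had 72.3 and 179 CPM (-1.31). G0s2, an inhibitor of the lipase ATGL, had 113 CPM in mutant and 254 CPM in control members (-1.17). Selenop, a secreted carrier of selenium, had 101 and 215 CPM (-1.09).

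Cebpd, a transcription factor of the acute phase, had 41.1 and 90.7 CPM (-1.14), Cd200, an immune checkpoint ligand, 30.3 and 72.6 CPM (-1.25), and Colec11, a collectin of the complement system, 35.7 and 68.6 CPM (-0.94). Lum, a small leucine-rich proteoglycan of interstitial cells, had 65.5 CPM in mutant and 154 CPM in control members (-1.23). The 10 interstitial markers summed to 2126 CPM in mutant and 2839 CPM in control members, against 20997 and 20069 CPM in interstitial cells, and none was at 0. The part of these transcripts in the ratio of Lum was not tested. Between female-type members the 9 lowest genes not held by that single cell all had the same sign and 4 were at least 2-fold lower. These members are part of the cells that ranked the genes, so this is no independent support. Ratios of female-type and then male-type mutant members over female-type control members were -0.82 and -1.81 for Tmem158. They were -0.84 and -2.03 for Lum and -0.87 and -1.63 for Cd200. S100a16 (-1.52 and -1.11) and Cebpd (-1.24 and -0.92) went the other way.

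**Figure D2:**
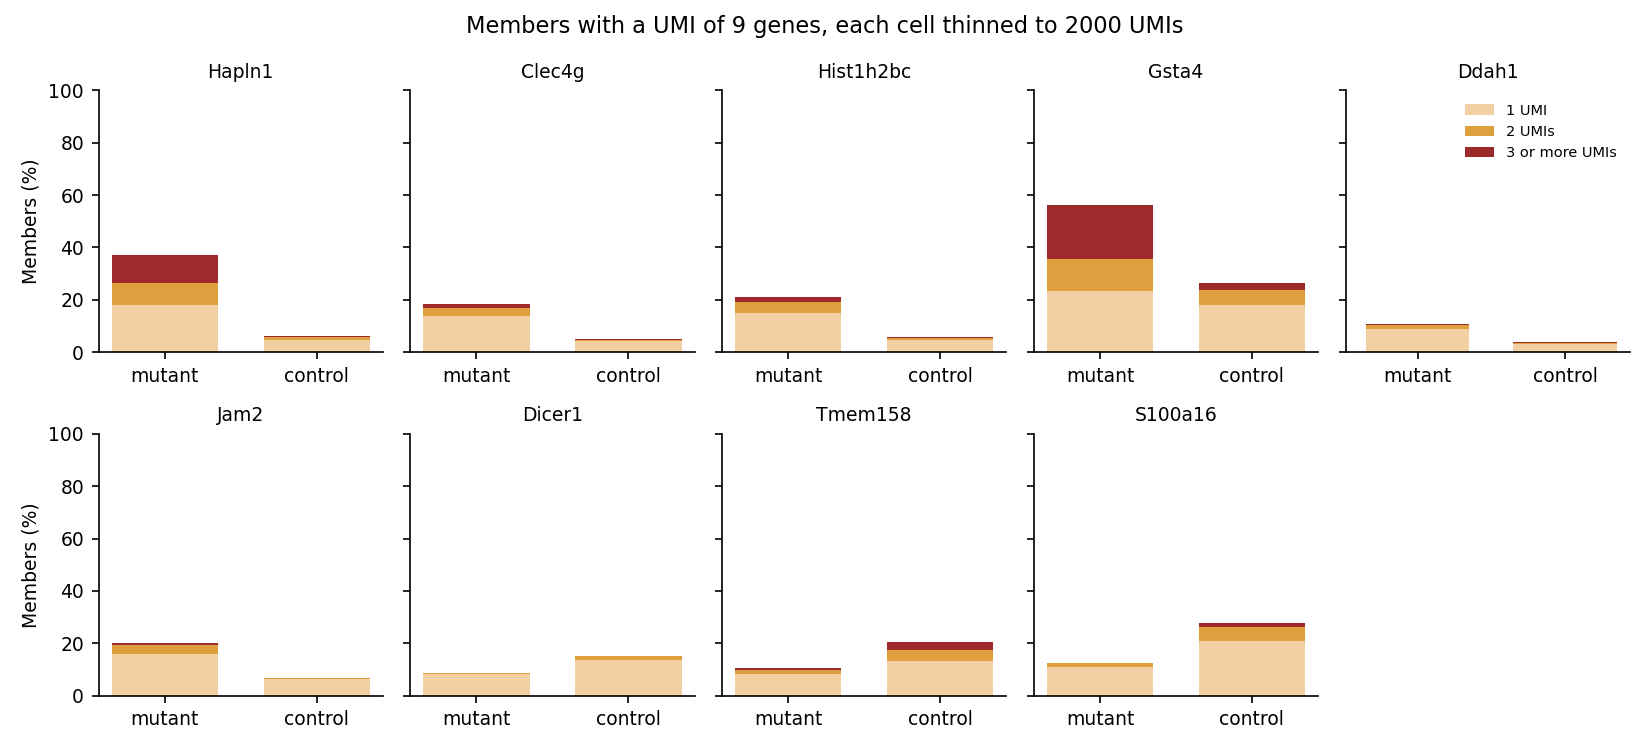
Percentage of members with 1, 2, or 3 or more UMIs of 9 genes, each cell thinned to 2000 UMIs (208 mutant and 763 control cells), mutant bar left of control. Hapln1 and Gsta4 are seen in more mutant cells (37.2% and 56.4%) than control cells (6.14% and 26.7%), and S100a16 in fewer (12.7% against 27.9%).

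**Figure D3:**
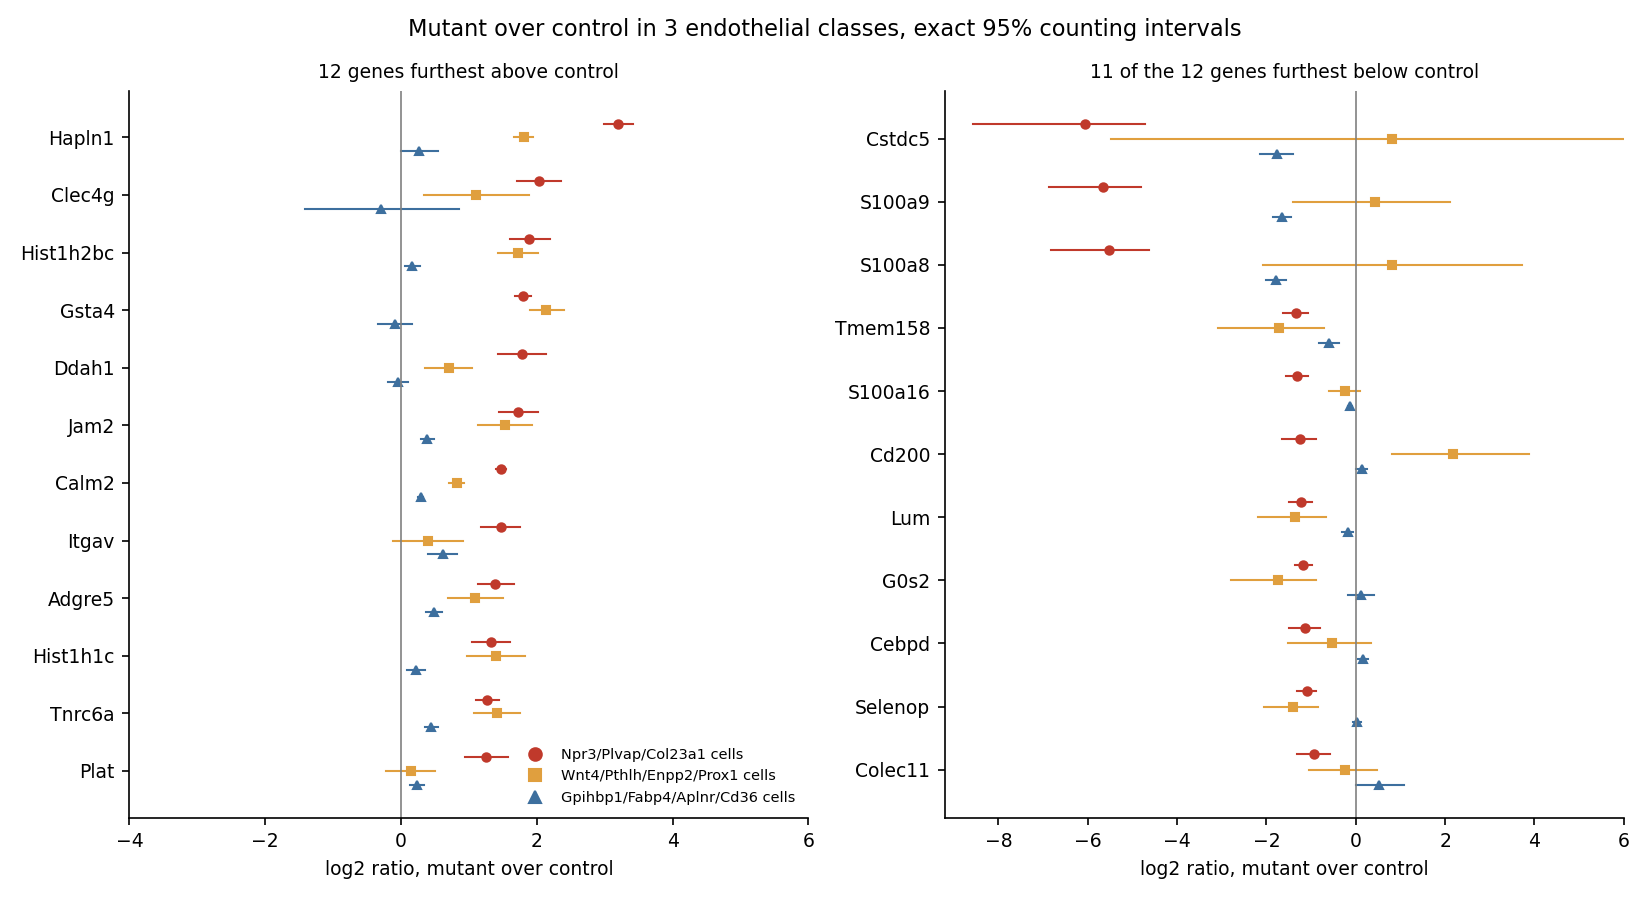
Log2 ratio of mutant over control with exact 95% counting intervals for the 12 highest and 11 of the 12 lowest genes in 3 endothelial classes (circles members, squares Wnt4 class, triangles Gpihbp1 class). The 12 highest genes lie above 0 in both the members and the Wnt4 class and below 2-fold in the Gpihbp1 class, and Cd200 lies on opposite sides in members (-1.25) and the Wnt4 class (2.17).

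Gene lists were read at 1.5-fold. Of all 8640 genes with a mean of 10 CPM or more, 8.25% were at least 1.5-fold higher in mutant members and 4.92% lower, around a median log2 ratio of 0.07. The fetal let-7 targets stood above that background, as did several other lists. Of 31 measured genes 11 were higher and 1 lower, with a median log2 ratio of 0.33, against 0.42 in the Wnt4 class and 0.11 in the Gpihbp1 class. Arid3a, a transcription factor of the ARID family, had 50.1 CPM in mutant and 8.85 CPM in control members, a ratio of 2.49 (1.97 to 3.06), and its relative Arid3b had 15.8 and 4.20 CPM (1.89). Hmga2, a chromatin protein of embryonic cells, had 30.3 and 15.9 CPM (0.93), and Thbs1, a matrix glycoprotein, had 57.8 and 29.9 CPM (0.95). Cdk6 was the 1 lower gene at 17.6 CPM in mutant and 39.6 CPM in control members (-1.15). Neither Thbs1 nor Cdk6 held a let-7 seed match in the 3′ UTR searched. Lists with a median above 0.33 included the unfolded protein response (0.48), adhesion G protein-coupled receptors (0.46), S phase (0.45) and G2 and M phases (0.38).

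The let-7 seed and its sites in the 5 genes with the largest ratios among the list members that hold one are shown to place these values. The seed, bases 2 to 8 of the microRNA, is in capitals in the first line, and the 7 bases that pair with it are in capitals in the site lines, all 5′ to 3′ on the transcript strand. The microRNA is from RefSeq and the sites are from GENCODE M21 on GRCm38. Mature microRNAs have no poly(A) tail and were not measured.
let-7a-5p: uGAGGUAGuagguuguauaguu
Arid3a, chr10:79953896-79953917, plus strand: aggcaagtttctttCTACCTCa
Arid3a, chr10:79954723-79954744, plus strand: gaaaaaactgttttCTACCTCt
Arid3b, chr9:57790361-57790382, minus strand: atttcaataaagctCTACCTCt
Hmga2, first of 4, chr10:120364224-120364245, minus strand: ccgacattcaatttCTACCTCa
Tgfbr1, chr4:47410829-47410850, plus strand: ggaggctggttgttCTACCTCa
Igf2bp2, chr16:22059473-22059494, minus strand: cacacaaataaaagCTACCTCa

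Tgfbr1, a TGF-beta receptor, had 56.5 CPM in mutant and 30.8 CPM in control members (0.88), and Igf2bp2, an RNA-binding protein, had 80.4 and 47.8 CPM (0.75). Of the 31 list members, 22 held the motif CTACCTC in the longest 3′ UTR on the transcript strand, with a median ratio of 0.43, and 9 did not, with a median of 0.02. Across all 3367 genes with a 3′ UTR, 9.12% held the motif. Genes with 2 or more sites, 39 in number, had a median ratio of 0.23 and 15.4% were at least 1.5-fold higher. Genes with 1 site, 268 in number, had a median of 0.10 and 7.09% were higher, and 3060 genes with none had 0.09 and 5.92%. The 3′ UTRs were longer with more sites, at medians of 4547, 2592 and 1068 bases.

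Other seeds were read in the same way. Over 17 microRNA families the genes with at least 1 site had medians between 0.07 (miR-29) and 0.12 (miR-26 and miR-30), against 0.09 without, except for miR-126, whose 5 genes had 0.40. The let-7 genes with at least 1 site had 0.10. With 2 or more sites, the medians lay between 0.04 (miR-17 and miR-19) and 0.23 (let-7), with 0.21 for the 31 genes of miR-21 and 0.16 for the 114 genes of miR-30. After a straight line on UTR length was taken off, the median of genes with a let-7 site was -0.01. The known targets of miR-126, an endothelial microRNA, had a median of 0.00 over 6 measured genes.

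Hapln1 held no let-7 motif in its 3503 bases of 3′ UTR. It held 1 site each of 4 other families, shown because this gene had the largest ratio. The capitals mark the microRNA seed and the 7 bases that pair with it.
miR-29a-3p: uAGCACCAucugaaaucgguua
Hapln1, chr13:89610216-89610237, plus strand: cttagtataggaaaTGGTGCTg
miR-27a-3p: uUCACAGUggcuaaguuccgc
Hapln1, chr13:89608239-89608260, plus strand: tgcaagttaccaaaACTGTGAt
miR-26a-5p: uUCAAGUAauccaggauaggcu
Hapln1, chr13:89610058-89610079, plus strand: ttggaggaagatcaTACTTGAa
miR-221-3p: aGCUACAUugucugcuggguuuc
Hapln1, chr13:89609018-89609039, plus strand: agaaaatgtgtaaaATGTAGCa
These motifs are common: they occur in 16.5% (miR-29), 16.6% (miR-27), 12.8% (miR-26) and 11.9% (miR-221 and miR-222) of the 3367 genes. A site of any of the 17 families was found in 7 of the 12 highest genes (58.3%), 8 of the 12 lowest (66.7%) and 73.5% of all genes. A motif match is a description of the sequence and not a measured site.

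**Figure D4:**
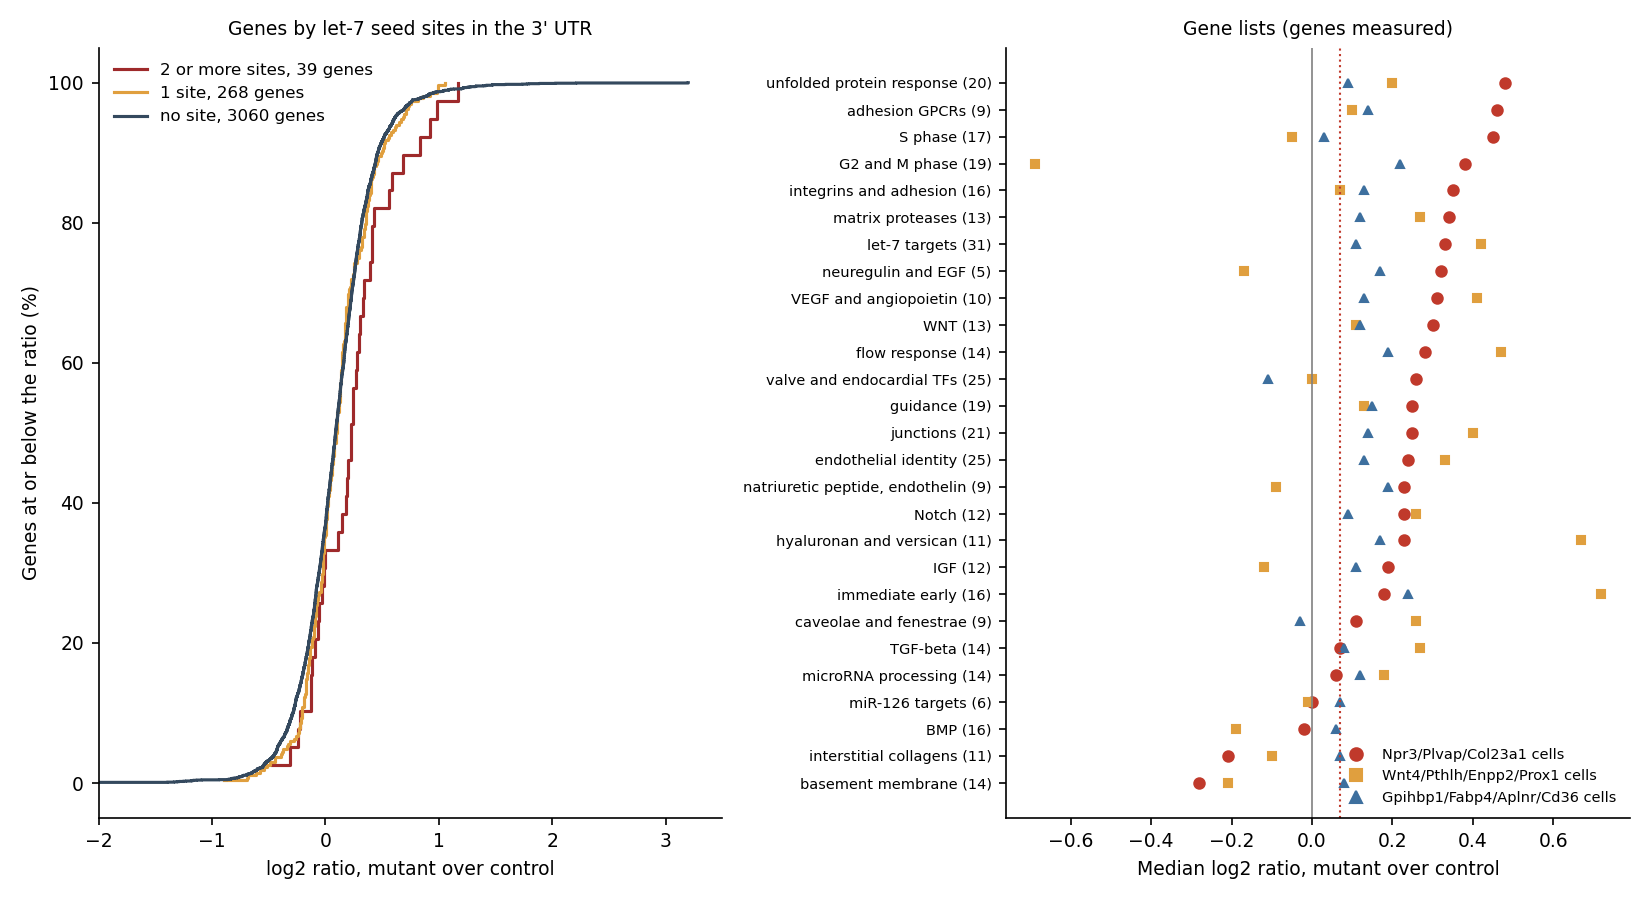
Left, cumulative percentage of genes by log2 ratio of mutant over control in members, split by the number of let-7 motifs in the 3′ UTR (the axis begins at -2). Right, median log2 ratio of each list in the members (circles), the Wnt4 class (squares) and the Gpihbp1 class (triangles), with the number of measured genes and a dotted line at the all-gene median of 0.07. The 39 genes with 2 or more motifs lie to the right, and the unfolded protein response list has the highest median in members, 0.48.

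Of 14 measured genes of microRNA processing, Tnrc6a was higher, Dicer1 lower and the others within 1.5-fold, with a median of 0.06. Tnrc6b had 236 CPM in mutant and 159 CPM in control members (0.57), and Ago2, the Argonaute that cuts its targets, had 115 and 78.3 CPM (0.56).

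The natriuretic peptide and endothelin genes, to which Npr3 and Ednrb belong, had a median of 0.23 over 9 measured genes. Edn1, the endothelin ligand, had 93.5 CPM in mutant and 133 CPM in control members (-0.51), and Prkg1, the kinase that acts below cyclic GMP, had 25.7 and 50.2 CPM (-0.95). Pde2a, which breaks cyclic nucleotides down, had 27.5 and 19.9 CPM (0.47). Nppa was higher at 18.1 and 8.41 CPM, but 47.5% of its mutant UMIs lay in 1 cell and its ratio between female-type members was 0.02. The cardiomyocyte markers summed to 2623 CPM in mutant and 1242 CPM in control members, with 12 of 12 detected. Their part in the Nppa ratio was not tested.

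Valve and endocardial transcription factors had 7 higher and 1 lower gene of 25, with a median of 0.26, against 0.00 in the Wnt4 class and -0.11 in the Gpihbp1 class. Sox11, a factor of embryonic progenitors, had 166 CPM in mutant and 72.1 CPM in control members (1.20). Within the mutant library its log2 ratio of male-type over female-type members was -1.15. Smad6, an inhibitor of BMP signals, had 117 and 68.6 CPM (0.77), and Mecom had 134 and 80.3 CPM (0.74). Nfatc2 had 13.5 and 6.64 CPM (1.03). Snai2, a factor of the endothelial-to-mesenchymal transition, was the lower gene at 9.94 and 15.3 CPM.

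Flow-responsive genes had 4 higher and 0 lower of 14, with a median of 0.28. Klf2, the main factor induced by shear stress, had 845 CPM in mutant and 506 CPM in control members (0.74), Thbd, thrombomodulin, had 90.3 and 49.1 CPM (0.88), Nos3, the endothelial nitric oxide synthase, had 193 and 120 CPM (0.69), and Heg1 had 325 and 212 CPM (0.62). In the Wnt4 and Pthlh class Klf2 was at 2477 CPM in the mutant and 1156 CPM in the control library. Some flow genes also respond to dissociation. Immediate early genes had 3 higher and 0 lower of 16, with a median of 0.18, and their part in the Klf2 ratio was not tested.

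Junction genes had 5 higher and 1 lower gene of 21, with a median of 0.25. Lsr, a receptor of tricellular junctions, had 78.6 CPM in mutant and 17.7 CPM in control members, a ratio of 2.15 (1.76 to 2.55). Cldn11, a claudin, was lower at 9.94 and 30.3 CPM (-1.58), with 27.3% of its mutant UMIs in 1 cell. Integrins and adhesion molecules split, with 5 higher and 4 lower of 16. Itgb4 had 15.4 and 5.53 CPM (1.47) and Itga1 170 and 63.5 CPM (1.42), though Itga1 did not pass the guard against free RNA. The lower genes were Cd200, Itga8, Vcam1 at 28.9 and 59.5 CPM and Mcam at 55.1 and 86.1 CPM. Adhesion G protein-coupled receptors had 3 higher and 0 lower of 9, with a median of 0.46 that was -0.01 when cells were thinned before the rule. The higher ones were Adgre5, Adgra3 (31.6 and 20.4 CPM) and Adgrg3 (log2 ratio 0.98).

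In the hyaluronan and versican list 3 of 11 genes were higher and 1 lower. Adamts5, a protease that cleaves versican, had 88.5 CPM in mutant and 42.7 CPM in control members (1.05), and Cemip2, a hyaluronidase of the cell surface, had 861 and 537 CPM (0.68). Cemip was the lower gene, at 7.68 and 18.1 CPM (-1.21), with 35.3% of its mutant UMIs in 1 cell. Vcan itself, the proteoglycan that Hapln1 binds, had a log2 ratio of 0.12 (0.00 to 0.24). Has2, which makes hyaluronan, was under 10 CPM on average, at 6.77 and 3.54 CPM.

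Basement membrane genes had the lowest median of the lists with 5 or more measured genes, -0.28 over 14, with 1 higher and 2 lower. Col4a1, a chain of collagen IV, had 967 CPM in mutant and 1659 CPM in control members (-0.78), its partner Col4a2 had 468 and 681 CPM (-0.54), and Col4a5 had 28.9 and 54.0 CPM (-0.89). Col18a1, which gives rise to endostatin, was the higher gene at 964 and 626 CPM (0.62). Interstitial collagens had 0 higher and 2 lower of 11, Col14a1 at 80.4 and 150 CPM and Col26a1 at 19.9 and 35.4 CPM. The interstitial markers named above were also lower in mutant members, and 45.8% of their mutant UMIs lay in 5 cells.

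More cell cycle genes were higher than lower in mutant members. Of 19 measured genes of the G2 and M phases 7 were higher and 0 lower (median 0.38), led by Kif23 at 39.3 and 14.4 CPM (1.45) and Cdk1 at 90.8 and 42.7 CPM (1.09). Of 17 S phase genes 7 were higher and 0 lower (median 0.45), led by Fen1 at 22.6 and 11.1 CPM (1.03) and Rrm2 at 27.5 and 13.9 CPM (0.98). At 2000 UMIs 22.4% of mutant and 10.6% of control members had 3 or more UMIs of the G2 and M list. In the Wnt4 class these shares were 31.8% and 22.4%, and in the Gpihbp1 class 49.2% and 46.9%. The G2 and M median was -0.69 in the Wnt4 class and 0.22 in the Gpihbp1 class. The G2 and M share was highest in the Gpihbp1 class, and the part of free RNA from those cells was not tested.

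Chaperones of the unfolded protein response had 6 higher and 1 lower of 20 genes, with a median of 0.48, against 0.20 in the Wnt4 class and 0.09 in the Gpihbp1 class. Manf had 337 CPM in mutant and 198 CPM in control members (0.77), Calr, calreticulin, had 835 and 494 CPM (0.76), Creld2 had 60.1 and 36.5 CPM (0.72) and Dnajb9 had 65.9 and 43.4 CPM (0.61). Ddit3, the stress factor CHOP, was the lower gene, with a ratio of -0.59.

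Markers of other cell types were also detected in members. Mural markers summed to 141 CPM in mutant and 171 CPM in control members, with Myh11 at 0 in both. Macrophage markers summed to 98.9 and 33.0 CPM, with Fcgr1 at 0 in the mutant library and 66.7% of the mutant UMIs in 1 cell. Erythroid markers summed to 634 and 773 CPM, of which 97.7% and 77.4% lay in 1 cell of each library. Epicardial markers summed to 8.58 and 5.09 CPM, melanocyte markers to 9.94 and 19.7 CPM, and lymphoid markers to 4.97 and 3.76 CPM. Without the genes of the rule, 7 arterial markers summed to 402 CPM in mutant and 512 CPM in control members, against 2620 and 2363 CPM in the Gja5 class. Likewise 4 venous markers summed to 344 and 383 CPM, against 296 and 397 CPM in the Vwf and Procr class, and 2 lymphatic markers to 25.3 and 19.7 CPM, against 458 and 476 CPM in the Lyve1 class. Within the mutant library 37 of 3524 genes (1.05%) were at least 2-fold apart between male-type and female-type members. Among them were Xist (-11.12 on the log2 scale, male over female), Ddx3y (8.24), haemoglobin genes, Lyz2 (-5.00) and cardiomyocyte genes such as Ttn (3.94).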

How the data were processed

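The authors deposited raw UMI counts per gene and barcode for 1 mutant and 1 control library, and the submitters' processing notes name Cell Ranger 5.0.0 and mm10. Counting options and annotation are not given in the sources used here. From these counts, barcodes were kept from 500 genes and 1000 UMIs upward if mitochondrial UMIs were below 20%, and put into 6 endothelial classes by their marker sums. Members and gene lists were chosen with earlier results of these data known. UMIs of a class were added up within each library and divided by their total to give CPM. A ratio is the log2 of mutant CPM over control CPM after adding 0.5 to each sum, with exact conditional Poisson 95% intervals. Shares carry exact Clopper-Pearson 95% intervals. With 1 library per genotype there is no test and no p-value. Genes were called at 2-fold (mean CPM of at least 50) or, in lists, at 1.5-fold (mean CPM of at least 10).

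Named genes were the 12 highest and 12 lowest ratios, the 20 leading genes, the rule and marker genes, Dicer1, Nfatc1 and up to 4 list members with the largest ratios. Of the first 24, the higher CPM had to be at least 1/5 of the highest level that any non-endothelial marker class of that library showed (the guard against free RNA). Rule, erythroid, mitochondrial, ribosomal protein, sex-linked marker and predicted genes were left out. Other genes named were chosen after their values were seen. Doublets, called with Scrublet in scanpy 1.11.5, took 3.33% of mutant and 3.83% of control kept cells, against 5.12% and 8.61% expected, and were kept. Shares of cells with a UMI were computed as expectations at 2000 UMIs per cell. Gene coordinates and 3′ UTRs come from GENCODE M21 (GRCm38, the assembly of mm10), which holds 32235 of the 32285 gene identifiers. A gene's longest basic 3′ UTR was searched, and all 41767 transcripts used had a stop codon before it. MicroRNA sequences come from RefSeq (GRCm38.p6). Some genes that these rules name are not reported here. The ratio and thinning code was tested on simulated data.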

Additional observations from a re-analysis of the deposited data

Results flagged for a closer look

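The 47 genes named as highest, lowest, leading or marker genes (rule genes left out) were each compared with the Wnt4 and Pthlh class and the Gpihbp1 class. In 8 gene and class pairs the ratio in members and that in the other class had intervals on opposite sides of 0. The share of such pairs over all genes was not computed. The difference between classes was not tested. Cd200 had a log2 ratio of -1.25 (-1.66 to -0.88) in members, but 2.17 (0.81 to 3.88) in the Wnt4 class, at 21.2 CPM in the mutant and 4.49 CPM in the control, and 0.13 (0.01 to 0.25) in the Gpihbp1 class, at 71.2 and 65.1 CPM. Cebpd had -1.14 in members and 0.17 (0.06 to 0.28) in the Gpihbp1 class. Adgrg6 had 0.55 in members and -1.31 (-1.81 to -0.83) in the Gpihbp1 class, at 2.85 CPM in the mutant and 7.09 CPM in the control library.

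Cdkn1c had -0.16 in members and 0.68 (0.42 to 0.93) in the Wnt4 class, at 325 CPM in the mutant and 203 CPM in the control. Nrk had -0.53 in members and 0.30 (0.17 to 0.43) in the Gpihbp1 class. Igfbp5 had 0.24 in members, but -0.28 (-0.44 to -0.12) in the Wnt4 class and -0.98 (-1.08 to -0.89) in the Gpihbp1 class, at 79.0 CPM in the mutant and 156 CPM in the control.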

How the results depend on the processing

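No paired analysis was possible because each genotype has 1 library. The share of kept cells was 2.56% in the mutant and 6.22% in the control library with the marker sum at least 2-fold above every other, and 1.86% and 3.17% with cells thinned before the rule. In the control library it was 6.46% with a sum of at least 5 and 5.57% with a gate of 6. The share of gated cells was 6.27% and 17.8%, and 5.81% and 12.9%, under the first 2 settings, and 18.5% and 18.8% in the control library under the last 2. It was lower in the mutant under each setting tried. The 41 higher and 15 lower genes became 156 and 63 when cells were thinned (111 mutant and 324 control members), 97 and 46 at a mean of 20 CPM, and 21 higher at 100 CPM. Leaving out cells with 3 or more UMIs of the G2 and M list, a limit that deeper cells pass more often, kept 51 mutant and 536 control members, with 28 lower genes. Of the 41 and 15 genes, 18 and 9 remained there. The lower genes numbered 23 without cells rich in interstitial markers. All other settings, 2 of them chosen after seeing the data (mixed cells left out, and no UMI of the Wnt4 sum), stayed within 1.5 times. The 24 highest and lowest genes kept their sign in each of 13 alternatives. Several lay within 2-fold in at least 1 setting, among the higher genes Hist1h1c (lowest 0.53), Plat (0.87) and Tnrc6a (0.97). Among the lower genes they were Tmem158 (nearest to 0 at -0.82), Cd200 (-0.74), Selenop (-0.68), Cebpd (-0.85), S100a16 (-0.95) and Lum (-0.44). Colec11, already within 2-fold at -0.94, came to -0.51 and passed 2-fold in 6 of the 13 alternatives. The cause was not tested for these genes. S100a9 (-0.04), S100a8 (-0.23) and Cstdc5 (-0.61), whose control UMIs lay mostly in 1 cell, also came within 2-fold. Nfatc1, at 0.08, ranged from -0.27 to 0.67, and Cytl1, at 0.17, from -0.34 to 0.66. The S phase median was -0.07 when thinned, the interstitial collagen median 0.12 with the stricter sum, the adhesion receptor median -0.01 when thinned, and the PDGF median ranged from -0.87 to 0.14. The basement membrane median was near 0 with no Wnt4 sum UMI. The let-7, unfolded protein response and G2 and M medians stayed above 0. The 214 mutant members limit every ratio of a gene under about 50 CPM.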

Other observations

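Other lists held single genes that stood apart. In the TGF-beta list 5 of 14 measured genes were higher in mutant members and 1 lower, with a median of 0.07. Tgfbi, a matrix protein induced by TGF-beta, had 19.9 CPM in mutant and 75.4 CPM in control members, a log2 ratio of -1.91 (-2.41 to -1.47), and -1.94 in the Wnt4 class. Skil, an inhibitor of the same pathway, had 132 and 67.0 CPM (0.98), and Ccn2, a matricellular protein, had 61.9 and 31.2 CPM (0.99), though its ratio between female-type members was 0.20. The BMP list had 3 higher and 1 lower of 16 genes and a median of -0.02, with Acvr2b at 34.3 and 14.4 CPM (1.25).

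In the WNT list 4 of 13 genes were higher and 2 lower, with Wnt11 at 48.3 CPM in mutant and 26.8 CPM in control members, Wnt2 at 12.6 and 31.6 CPM (28.6% of its mutant UMIs in 1 cell) and the inhibitor Sfrp1 at 8.13 and 23.7 CPM. Sfrp1 did not pass the guard against free RNA. Igf2r, the receptor that clears IGF2, had 1605 and 964 CPM (0.74). In the guidance list Sema3f had 27.5 and 11.5 CPM (1.26). In the VEGF and angiopoietin list Tek, the angiopoietin receptor, had 420 and 273 CPM (0.62) and Nrp2 had 26.2 and 44.0 CPM (-0.74). Of the caveolar genes, Cav2 had 163 and 90.3 CPM (0.85), whereas Cavin2 had 957 and 1297 CPM (-0.44). Notch1 had 303 CPM in mutant and 270 CPM in control members, and its target Hey2 had 23.0 and 11.7 CPM (0.97).

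Beyond the 12 named genes, Lgals9 (318 CPM in mutant and 136 CPM in control members), Ecm1 (208 and 90.1 CPM), Fxyd5 (255 and 113 CPM), Gas6 (218 and 106 CPM) and H2-D1 (245 and 119 CPM) were also at least 2-fold higher. These were chosen after their values were seen.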
